A study of Mus musculus with 23 samples.

Results

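The 4 Notch receptor genes of the mouse, Notch1, Notch2, Notch3 and Notch4, were followed through RNA-seq of fetal thymic epithelial cells (TECs), and they were chosen by name, as 4 of the 50123 genes in the count table. The study sorted TECs of C57BL/6 embryos on the epithelial marker EPCAM and on PLET1, a surface marker of the founder cells of this epithelium, and made each of 23 libraries from 100 cells. In the Rbpj cKO (Foxn1Cre RbpjFL/FL), Cre made under the control of Foxn1 deletes Rbpj in TECs, and in NICD embryos (Foxn1Cre Rosa26FL-STOP-FL-NICD-IRES-EGFP) the same Cre switches on a Notch intracellular domain from the Rosa26 locus. There were 3 libraries each of control and Rbpj cKO PLET1+ TECs at E12.5, of control and Rbpj cKO PLET1+ TECs at E14.5, and of control and Rbpj cKO PLET1- TECs at E14.5, and 5 libraries of NICD PLET1+ TECs at E14.5. Controls are labelled wild type, but the breeding described for the cross gives littermates that all carry at least 1 floxed Rbpj allele. The libraries of each age in the Rbpj cross came from 2 batches, and the paper states that each age was collected from 2 litters on 2 days. The NICD embryos were littermates sorted in another laboratory and form a batch of their own, so that their genotype, litter and batch cannot be told apart. Fetal tissue was not depleted of thymocytes before sorting, and in such bulk libraries fewer cells of a type and less RNA per cell cannot be told apart.

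Notch receptors are single-pass membrane proteins that bind Delta-like and Jagged ligands on neighbouring cells. Binding exposes the receptor to a metalloprotease and then to gamma-secretase, which frees the intracellular domain (NICD), and this domain enters the nucleus and activates target genes such as the Hes and Hey genes together with RBPJ and Mastermind-like cofactors. Notch1 and Notch2 are broadly expressed, Notch3 is best known from vascular smooth muscle and pericytes, and Notch4 from endothelium. In the thymus, Notch1 on thymocyte progenitors meets the ligand DLL4 on the epithelium, while the data here concern the receptors of the epithelium itself.

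On GRCm38, Notch1 (ENSMUSG00000026923.15) lies on the minus strand of chromosome 2 at 26457903 to 26516663, and Notch2 (ENSMUSG00000027878.11) on the plus strand of chromosome 3 at 98013527 to 98150361. Notch3 (ENSMUSG00000038146.7) and Notch4 (ENSMUSG00000015468.14) share chromosome 17, on the minus strand at 32120820 to 32166880 and on the plus strand at 34564268 to 34588503. Their counted exon lengths are 14232, 10782, 8044 and 8061 bases, and all 4 passed the filter on low counts. Reads were counted without regard to strand, and the exons of Notch1, Notch2 and Notch3 overlap those of 2, 1 and 1 other genes. The neighbours hold few reads: 0610009E02Rik, the most counted of them, had a sum of 1396 read counts over all libraries, against 22604 for Notch1. These sums do not show how many reads fell on the shared bases. Reads of the NICD transgene can fall on Notch1, because the Notch intracellular domain of the transgene is coded by Notch1 exons, and a gene-level count cannot separate them.

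Because Notch1 and Notch3 varied together across the libraries, the 250 bases before their RefSeq start sites are shown, 5′ to 3′ on the gene's strand (GRCm38.p6), at chr2:26503823-26504072 for Notch1 and chr17:32166891-32167140 for Notch3. Capitals mark GGGCGG or its reverse complement CCGCCC, the GC box bound by Sp1-family factors.
Notch1: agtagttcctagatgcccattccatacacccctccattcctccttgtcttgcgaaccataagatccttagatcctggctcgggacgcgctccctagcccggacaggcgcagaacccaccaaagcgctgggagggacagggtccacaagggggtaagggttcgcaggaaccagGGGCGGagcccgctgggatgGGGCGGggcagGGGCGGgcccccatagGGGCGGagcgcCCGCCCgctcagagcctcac
Notch3: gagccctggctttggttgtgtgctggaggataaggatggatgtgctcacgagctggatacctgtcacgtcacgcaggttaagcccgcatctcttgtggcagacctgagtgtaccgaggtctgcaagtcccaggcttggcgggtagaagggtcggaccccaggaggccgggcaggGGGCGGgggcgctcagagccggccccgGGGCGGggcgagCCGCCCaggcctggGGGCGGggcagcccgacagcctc
The Notch1 window lies 12591 bases inside the outer end of the gene model that was counted, since that model holds a longer transcript than the RefSeq start used here. Motifs were searched in somewhat longer windows that reach past the start site (chr2:26503773-26504072 for Notch1). GC boxes occurred 5 times in the Notch1 window, 5 times in that of Notch2, 4 times in that of Notch3 and 0 times in that of Notch4, all within the 250 bases before the start site. Of all 32851 RefSeq windows, 32.7% held at least 1. The RBPJ motif GTGGGAA, searched on both strands, and its core TGGGAA, which lies within it, were in none of the 4 receptor windows, while 5.42% and 21.6% of all windows held them.

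The libraries held 20053241 to 92699969 read pairs on genes and 16229 to 20350 detected genes. All 8 thymic epithelial markers were detected in every group, with a summed level of 2980 to 11400 CPM, the usual depth-scaled count of a gene, with TMM-corrected library sizes. Thymocyte markers summed to 3.79 to 59.2 CPM. In the E14.5 Rbpj cross, replicate 1 of each of the 4 groups stood apart from replicates 2 and 3: its mitochondrial share was 7.80% to 9.54% against 4.21% to 5.36%, and its Foxn1 level 12.6 to 97.5 CPM against 121 to 295 CPM. NICD libraries were also high in mitochondrial reads (9.60% to 12.8%), as were the E12.5 libraries (6.80% to 14.6%). Rbpj, the deleted gene, was at 20.4, 20.2 and 18.4 CPM in E14.5 PLET1+ controls (replicates 1 to 3) and at 0.061, 10.4 and 6.95 CPM in the cKO. Among PLET1- libraries, the 3 controls had 9.50, 11.1 and 26.2 CPM, while the 3 cKO libraries had 4.44, 3.42 and 8.29 CPM. At E12.5 it was at 15.1, 20.1 and 37.9 CPM in controls and 9.48, 16.2 and 2.09 CPM in the cKO. Every E14.5 cKO library was thus below every control of its PLET1 gate, whereas at E12.5 cKO replicate 2 overlapped the controls; the log2 fold changes of Rbpj, −1.82 (SE 1.04), −1.5 (SE 1.03) and −1.54 (SE 1.16) in this order, had an adjusted p of 1 (edgeR).

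Notch2 carried most of the receptor RNA in every library. Per kilobase of exon, the mean level over the 23 libraries was 35.2 CPM per kb for Notch2, 1.21 for Notch1, 1.06 for Notch3 and 0.177 for Notch4. Of the summed receptor level per kb, Notch2 held between 66.0% and 100% in a library (median 92.7%), Notch1 between 0% and 18.1% (median 3.57%), Notch3 between 0% and 14.1% (median 2.89%) and Notch4 between 0% and 2.25% (median 0.239%). The lowest Notch2 share belonged to NICD replicate 1 and the highest to replicate 1 of the E14.5 PLET1+ Rbpj cKO, in which the other 3 receptors had no read. In E14.5 PLET1+ TECs the Notch3 share was 6.65% ± 3.33 (SD, n = 3) in controls and 0.414% ± 0.372 (SD, n = 3) in the Rbpj cKO, and the Notch1 share 7.62% ± 3.75 and 3.51% ± 3.10. The mean CPM of Notch2 exceeded that of 97.7% of the genes tested, that of Notch1 63.5%, that of Notch3 53.5% and that of Notch4 33.0%. Notch4 had at most 3 counts in 10 of the 23 libraries, 4 of them with none, and 20 to 750 counts in the other 13.

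**Figure D1:**
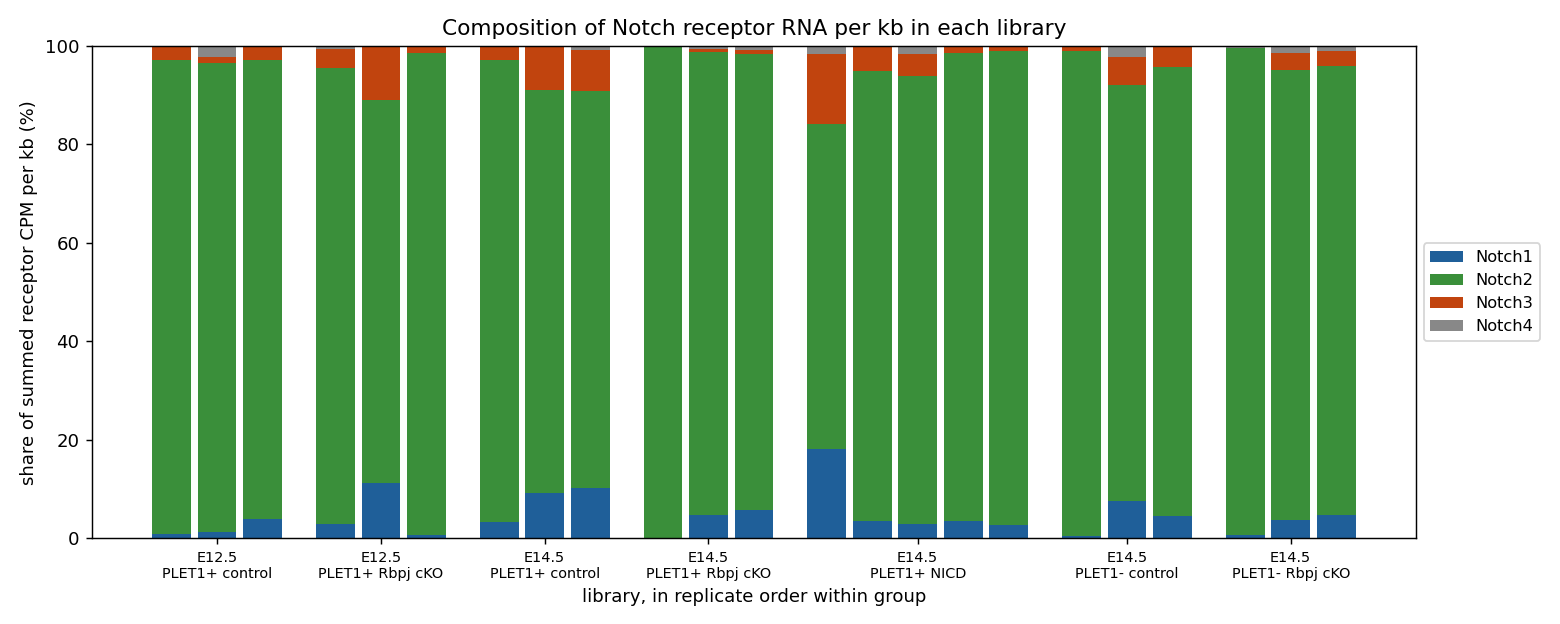
Each bar is 1 library, split into the percentage of the summed receptor CPM per kb that belongs to Notch1, Notch2, Notch3 and Notch4, with libraries in replicate order within 7 groups. Notch2 fills 66.0% to 100% of every bar, and the Notch3 segment is thinnest in the E14.5 PLET1+ Rbpj cKO (0% to 0.720%) and in replicate 1 of the PLET1- cKO.

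Loss of Rbpj in E14.5 PLET1+ TECs went with a much lower Notch3 level and a lower Notch1 level, while Notch2 and Notch4 overlapped with controls. Notch3 was at 8.84, 9.01 and 8.26 CPM in control replicates 1 to 3 and at 0, 0.418 and 0.498 CPM in cKO replicates 1 to 3, from 243, 496 and 348 counts against 0, 17 and 21. All 3 cKO libraries were thus far below all controls, which lay close together. The means, 8.70 ± 0.392 and 0.305 ± 0.267 CPM (SD, n = 3 each), differed 28.5-fold, and the fitted log2 fold change was −4.88 (SE 1.30). The unadjusted p of 0.0015 was the 3rd smallest of 19140 genes tested, but the adjusted p was 1 in edgeR's quasi-likelihood test, in which 0.0% of the genes tested were called in this comparison and 395 had an unadjusted p under 0.05. DESeq2, run as an alternative, called Notch3 at an adjusted p of 0.000393, among 100 genes. Without cKO replicate 1 the log2 fold change was −4.22 (adjusted p = 1). The cKO was below the control in both batches. In batch 3 the means of 2 libraries each were 0.209 and 8.92 CPM, and in batch 4 the values of 1 library each were 0.498 and 8.26 CPM.

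Notch1 stood at 18.4, 16.7 and 18.2 CPM in E14.5 PLET1+ controls and at 0, 6.61 and 7.16 CPM in the cKO. Its groups did not overlap either, and cKO replicates 2 and 3 lay well under the lowest control. The log2 fold change was −2.0 (SE 1.15; adjusted p = 1), or −1.34 without cKO replicate 1, which had no Notch1 read. Thus 2 of the 4 receptors were lower in every cKO library than in every control, against 4.57% of the genes tested. Among markers of other cells, the 8 medullary markers summed to 410 to 674 CPM in these controls and 76.3 to 193 CPM in the cKO, where 6 of the 8 were detected above 3 counts and Fezf2 was at 0, and their part in the Notch1 and Notch3 values was not tested. The 8 cortical markers summed to 5900 to 7990 CPM in controls and 9140 to 12200 CPM in the cKO, but not all of them rose. Ccl25, the largest part of the sum in cKO replicate 1, was at 3409, 1117 and 1165 CPM in controls and 7788, 2101 and 2435 CPM in the cKO. Psmb11 was at 386 to 490 CPM in controls and at 377, 889 and 857 CPM in the cKO. Ly75 was higher in the cKO without overlap (165 to 233 against 98.7 to 138 CPM). Mesenchymal and pericyte markers summed to 58.0 to 99 CPM and 29.6 to 47.2 CPM, with 6 of 10 markers above 3 counts in at least 1 control library and 9 of 10 in at least 1 cKO library. Rgs5, a pericyte gene and the largest part of these sums in controls, was at 60.6, 72.9 and 30.4 CPM in controls and at 23.7, 17.9 and 1.92 CPM in the cKO, without overlap, as for Notch3, while Pdgfrb was at 0 in all 6 libraries and Kcnj8 at 0 in the controls. The part of such cells in the Notch1 and Notch3 values was not tested.

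Notch2 was at 393, 111 and 108 CPM in E14.5 PLET1+ controls and at 1390, 101 and 85.7 CPM in the cKO. In both groups replicate 1 was the high library, and cKO replicates 2 and 3 lay just under the lowest control. The log2 fold change of 1.02 (SE 0.84; adjusted p = 1) turned to −0.93 without cKO replicate 1, and to −0.22 without replicate 1 of all 4 E14.5 groups of the cross, an alternative chosen after the values were seen. Notch4 was at 0, 0.036 and 0.902 CPM in controls and 0, 0.516 and 0.640 CPM in the cKO, so that its groups overlapped throughout (log2 fold change 0.86, SE 2.66; adjusted p = 1).

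**Figure D2:**
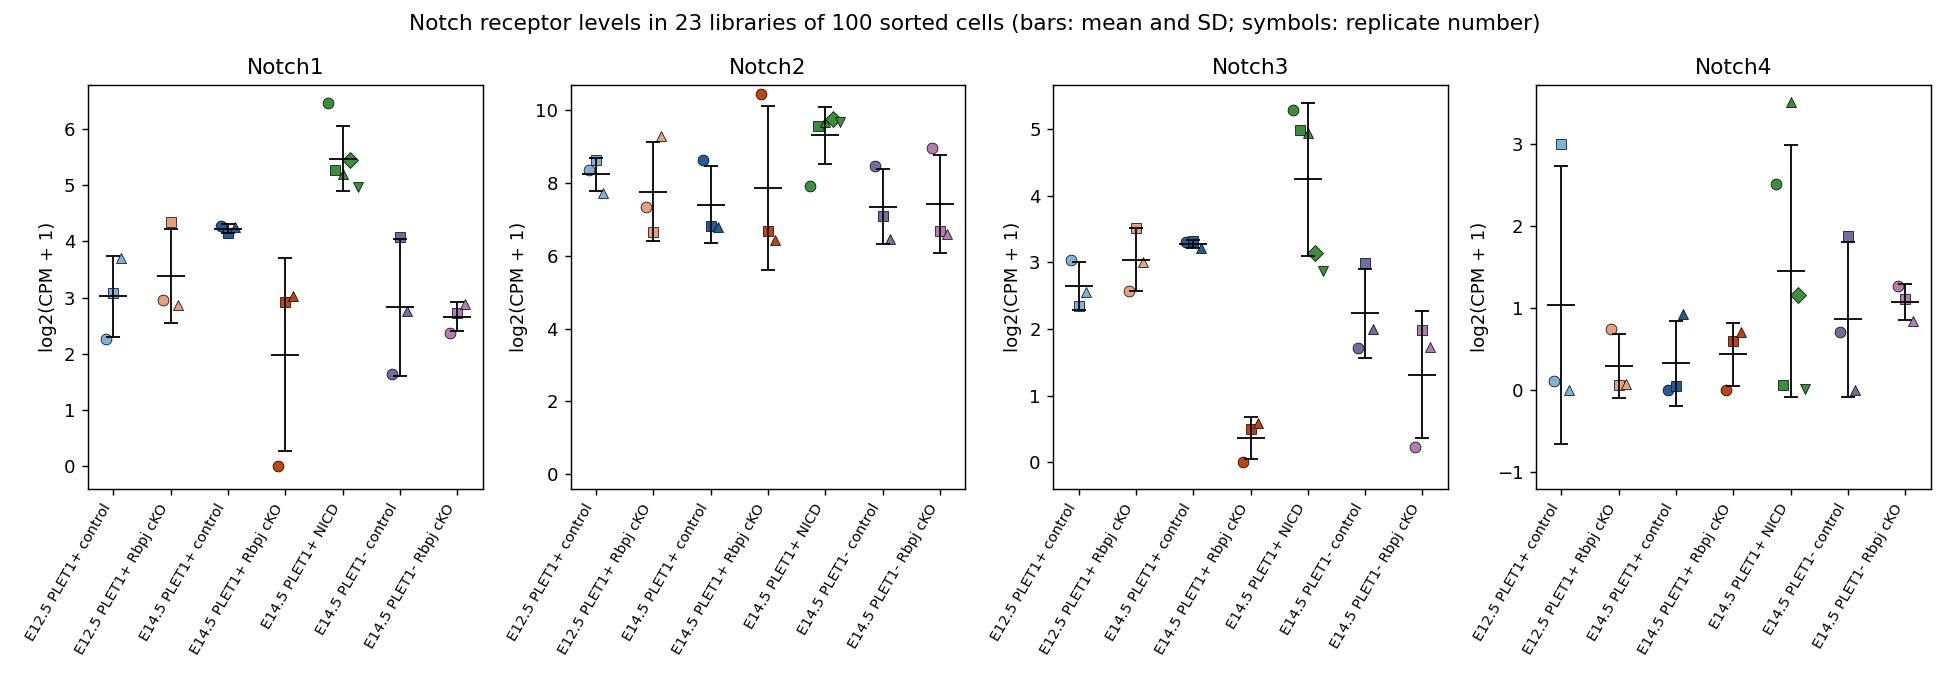
Each panel plots log2(CPM + 1) of 1 receptor in the 23 libraries by group, with circles, squares, triangles, diamonds and inverted triangles for replicates 1 to 5 and bars for the mean and SD on that scale. Notch3 and Notch1 lie lower in all 3 E14.5 PLET1+ Rbpj cKO libraries than in the 3 controls, and for Notch2 replicate 1 is the highest library in each of the 4 E14.5 groups of the Rbpj cross.

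In PLET1- TECs of the same age the receptor levels of Rbpj cKO and control libraries overlapped for all 4 genes. Notch3 was at 2.27, 6.94 and 3.0 CPM in controls and 0.168, 2.95 and 2.32 CPM in the cKO. The log2 fold change was −1.22 (SE 1.12; adjusted p = 1). The lowest value again belonged to cKO replicate 1, with 8 counts, and cKO replicates 2 and 3 overlapped the controls. If libraries are paired by replicate number, which no label states, Notch3 was lower in the cKO within each of the 3 pairs. With the replicate block the log2 fold change was −1.62 (SE 1.09, adjusted p = 1 in edgeR's test). The share of all genes tested with such an order was not counted. Notch1 was at 2.12, 15.9 and 5.78 CPM in controls and 4.19, 5.64 and 6.39 CPM in the cKO (log2 fold change −0.59, SE 1.11). Notch2 was at 352, 136 and 87.3 CPM in controls and 495, 102 and 95.3 CPM in the cKO (log2 fold change 0.23, SE 0.81), with replicate 1 the high library in both groups. For Notch4 the levels were 0.638, 2.66 and 0 CPM in controls and 1.41, 1.16 and 0.786 CPM in the cKO (log2 fold change −0.18, SE 2.34). None of the 4 receptors was called (adjusted p = 1 for each in edgeR's test), and 0.0% of the genes tested were, with 447 at an unadjusted p under 0.05 and 160 called by DESeq2. Mesenchymal and pericyte markers differed widely within these groups, with summed levels of 12.3 to 1130 CPM in controls and 24.1 to 510 CPM in the cKO, and control replicate 2 was the highest library of its group both in these markers and in Notch1, Notch3 and Notch4; the part of such cells in these values was not tested.

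At E12.5, shortly after Foxn1Cre becomes active, PLET1+ cKO and control libraries overlapped for every receptor. Notch1 was at 3.83, 7.51 and 12 CPM in controls and 6.73, 19.3 and 6.28 CPM in the cKO, and Notch3 at 7.24, 4.06 and 4.88 CPM in controls and 4.96, 10.5 and 7.07 CPM in the cKO. Replicate 2 of the cKO was the highest library for both genes. Their log2 fold changes were 0.51 (SE 1.17) and 0.48 (SE 1.10), with adjusted p = 1 in edgeR's test. Notch2 was at 323, 392 and 211 CPM in controls and 160, 100.2 and 618 CPM in the cKO (log2 fold change −0.54, SE 0.91; adjusted p = 1). Its cKO values lay on both sides of the control range. The cKO was lower in batch 1 (129.9 against 358 CPM, means of 2 libraries each) and higher in batch 2 (618 against 211 CPM, 1 library each). Notch4 reached 6.94 CPM in control replicate 2, from 424 counts, while the other 5 E12.5 libraries had 0 to 20 counts, and its log2 fold change of −1.84 (SE 3.50; adjusted p = 1) became 3.29 without that library. In this comparison 0.0261% of the genes tested were called, none of them a receptor. The medullary markers summed to 97.3 to 170 CPM in controls and 29.7 to 89.1 CPM in the cKO, and the parathyroid markers to 1400 to 9091 CPM and 742 to 1578 CPM, and their part was not tested.

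Whether the effect of Rbpj loss on the receptors differed between the PLET1 gates or between ages was tested with interaction terms. For Notch3, the log2 cKO effect in PLET1+ TECs minus that in PLET1- TECs at E14.5 was −3.66 (SE 1.60; unadjusted p = 0.0352 in edgeR's fit). The effect at E14.5 minus that at E12.5, both in PLET1+ TECs, was −5.36 (SE 1.66; unadjusted p = 0.00475). Both had an adjusted p of 1, so neither difference passed the test over all genes. The age term was called by DESeq2 (adjusted p = 0.0128), and over the 23 alternatives the terms ranged from −4.33 to −2.80 and from −6.38 to −4.66. For Notch1 the terms were −1.41 (SE 1.57) and −2.51 (SE 1.63), for Notch2 0.79 (SE 1.16) and 1.56 (SE 1.23) and for Notch4 1.04 (SE 3.65) and 2.71 (SE 4.39), all with an adjusted p of 1. edgeR called 0.0% of the genes tested in either interaction, with 502 and 603 at an unadjusted p under 0.05, while DESeq2 called 107 and 193.

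**Figure D3:**
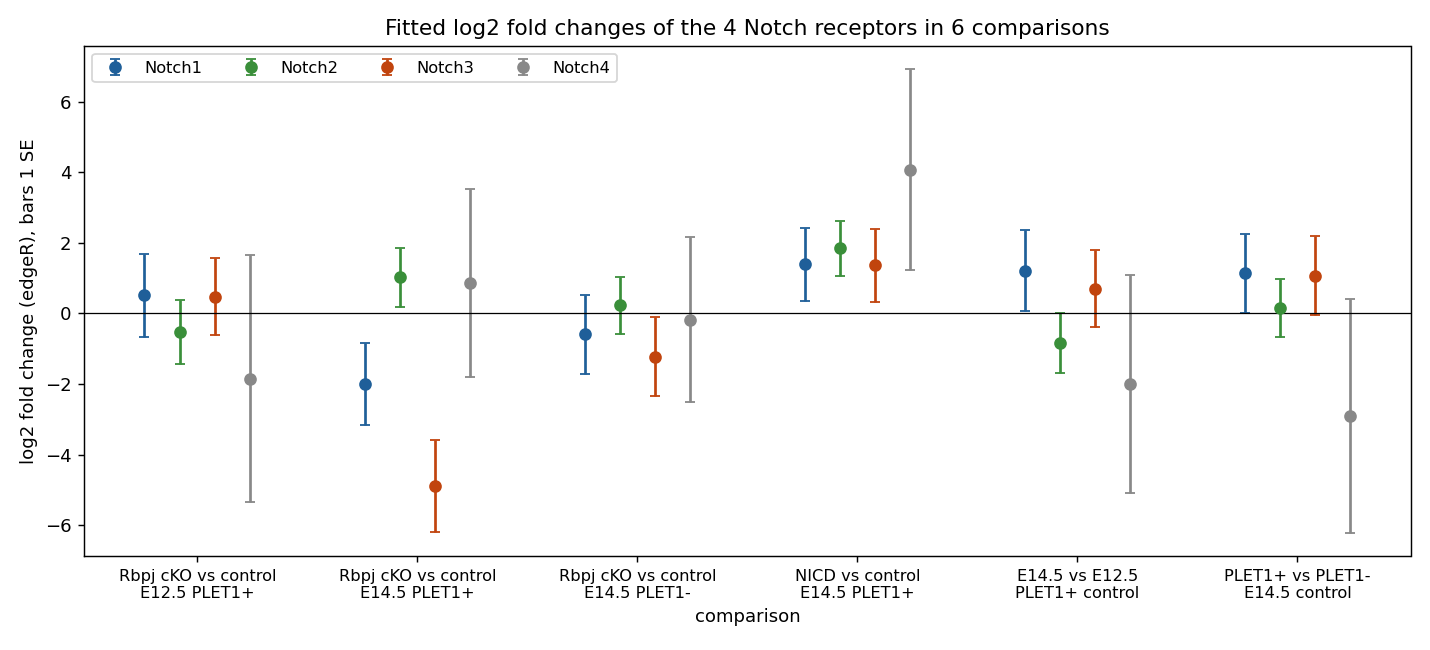
Points give the fitted log2 fold change of each receptor in 6 comparisons and bars 1 SE on each side. Only Notch3 in the E14.5 PLET1+ Rbpj cKO (−4.88, SE 1.30) lies more than 3 SE from 0, and the SEs of Notch4 (2.34 to 3.50) are the widest.

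With Foxn1Cre-driven NICD, the mean level of every receptor in E14.5 PLET1+ TECs was above that in controls, but only Notch1 was higher in all 5 NICD libraries than in all 3 controls. Notch1 was at 87.0, 37.5, 35.5, 42.7 and 30.4 CPM in NICD replicates 1 to 5, against 16.7 to 18.4 CPM in controls. Even the lowest NICD library lay above the highest control, and replicate 1 lay far above the other 4. The means, 46.6 ± 23 (SD, n = 5) and 17.8 ± 0.937 CPM (SD, n = 3), differed 2.63-fold, but the log2 fold change of 1.39 (SE 1.04) had an adjusted p of 0.578. Since transgene reads can be counted on Notch1, this level is that of the gene and the transgene together. Thus 1 of the 4 receptors was above controls without overlap, against 5.22% of the genes tested.

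Notch2 reached 240, 750, 813, 862 and 805 CPM in NICD replicates 1 to 5, against 393, 111 and 108 CPM in controls. Here replicate 1, the highest for Notch1, was the lowest of its group and lay within the control range, while the other 4 lay above every control. The log2 fold change of 1.84 (SE 0.79) had an unadjusted p of 0.0312 and an adjusted p of 0.263. It was 0.27 with the mitochondrial share as a covariate, an alternative added after the values were seen, and its adjusted p was 0.000526 when no filter on low counts was applied. Without control replicate 1, the control library high in Notch2 and in mitochondrial reads, it was 2.49 (adjusted p = 0.272).

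Notch3 in the NICD libraries split into 38.2, 30.8 and 29.8 CPM in replicates 1 to 3 and 7.80 and 6.29 CPM in replicates 4 and 5. The former lay above all controls (8.26 to 9.01 CPM) and the latter below all of them. The log2 fold change was 1.36 (SE 1.03; adjusted p = 0.586). Notch4 varied from 0.013 CPM in replicate 5 and 0.046 CPM in replicate 2 to 1.23, 4.67 and 10.4 CPM in replicates 4, 1 and 3 (log2 fold change 4.07, SE 2.85; adjusted p = 0.541). Libraries of littermates with the same genotype thus held from 1 to 750 Notch4 counts. Among 10 endothelial markers, whose sum was 0.262 to 27.5 CPM in NICD and 4.91 to 16.4 CPM in control libraries, 7 of 10 were above 3 counts in at least 1 NICD library and 4 of 10 in at least 1 control. These 2 counts are not alike, since there were 5 NICD and 3 control libraries. The NICD libraries were also deeper, with 63587152 to 92699969 read pairs on genes against 28284253 to 48312976. NICD replicate 3, the highest in Notch4, had the lowest sum, and replicate 5, the lowest in Notch4, the highest, with Tek at 20.2 CPM. Tie1 was at 0 in the NICD and the control libraries alike, and the part of endothelial cells in the Notch4 values was not tested. edgeR called 0.684% of the genes tested between NICD and control, none of them a receptor. The medullary markers summed to 1030 to 2010 CPM in NICD libraries, above the control range of 410 to 674 CPM. Krt5 made up most of these sums, at 928 to 1852 CPM with NICD and 291 to 493 CPM in controls. The other medullary markers overlapped between NICD and control libraries. Markers of mesenchyme and pericytes summed to 75.7 to 392 CPM with NICD, above the control range of 58.0 to 99 CPM in 4 of 5 libraries. The part of either set of markers in the receptor values was not tested.

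Between E12.5 and E14.5, control PLET1+ TECs differed in Notch1 and Notch3 without overlap of their libraries. Notch1 was at 7.79 ± 4.11 CPM at E12.5 and 17.8 ± 0.937 CPM at E14.5 (SD, n = 3 each), and Notch3 at 5.39 ± 1.65 and 8.70 ± 0.392 CPM. The E14.5 libraries lay closer together than the E12.5 ones for both genes. The log2 fold changes, 1.22 (SE 1.14; adjusted p = 0.695) and 0.71 (SE 1.10; adjusted p = 0.854), did not pass edgeR's test. With 2 of the 4 receptors higher at E14.5 in every library, this compares with 11.5% of the genes tested, and 0.967% were called. Notch2 was at 309 ± 91.3 CPM at E12.5 and 204 ± 164 CPM at E14.5, with E14.5 replicate 1 (393 CPM) just above the E12.5 range of 211 to 392 CPM and replicates 2 and 3 below it (log2 fold change −0.83, SE 0.84; adjusted p = 0.724). That value turned to 1.22, and that of Notch3 to −0.19, with the mitochondrial share as a covariate. Notch4 had a log2 fold change of −2.0 (SE 3.09; adjusted p = 0.852), which rests on E12.5 control replicate 2 and was 3.27 without it. The medullary markers summed to 97.3 to 170 CPM at E12.5 and 410 to 674 CPM at E14.5. The 4 parathyroid markers, of the gland that arises from the same pharyngeal pouch, summed to 1400, 1568 and 9091 CPM at E12.5 and 2.11, 400 and 3.47 CPM at E14.5 in replicates 1 to 3. Pth was the largest part of the E12.5 sums. All 4 were detected at both ages, but at E14.5 Gcm2 was at 8.79 CPM in replicate 2 and at 0 in replicates 1 and 3. Neither sum overlapped between ages, whereas the single markers Casr, Cldn3 and Cldn4 did. The part of these markers in the receptor values was not tested. The ages fall in different batches, so age and batch cannot be told apart.

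Between the PLET1 gates at E14.5, controls again separated in Notch1 and Notch3. Notch1 was at 17.8 ± 0.937 CPM in PLET1+ and 7.92 ± 7.13 CPM in PLET1- TECs, and Notch3 at 8.70 ± 0.392 and 4.07 ± 2.51 CPM (SD, n = 3 each). PLET1- replicate 2, at 15.9 and 6.94 CPM, came close to the PLET1+ libraries, and the other PLET1- libraries lay well under them. The log2 fold changes of 1.14 (SE 1.12) and 1.08 (SE 1.11) had an adjusted p of 1. With 2 of the 4 receptors higher in every PLET1+ library, the same was true of 5.03% of the genes tested, and edgeR called 0.0% of them, with 550 at an unadjusted p under 0.05 and 153 called by DESeq2. Notch2 differed little in mean (204 ± 164 and 192 ± 141 CPM; log2 fold change 0.15, SE 0.81), with replicate 1 the high library on both sides. Notch4 had a log2 fold change of −2.91 (SE 3.30; adjusted p = 1), from at most 38 counts in PLET1+ and at most 79 in PLET1- libraries. The medullary markers summed to 410 to 674 CPM in PLET1+ and 81.3 to 206 CPM in PLET1- controls, without overlap. In PLET1- controls the parathyroid markers summed to 1559, 920 and 2.17 CPM and those of mesenchyme and pericytes to 348, 1133 and 12.3 CPM in replicates 1 to 3, against at most 400 and 99 CPM in PLET1+ controls, and the part of these cells was not tested. The comparisons with the cKO, NICD, E12.5 and PLET1- libraries all use the same 3 E14.5 PLET1+ control libraries, which had the smallest spread of Notch1 and Notch3 of any group (coefficients of variation of 5.28% and 4.50%).

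Ordered by mean level, Notch1 ran from NICD (46.6 CPM) through E14.5 PLET1+ controls (17.8 CPM), E12.5 cKO (10.8 CPM), PLET1- controls (7.92 CPM), E12.5 controls (7.79 CPM) and PLET1- cKO (5.41 CPM) to E14.5 PLET1+ cKO (4.59 CPM). The only neighbours in this order whose libraries did not overlap were NICD and E14.5 PLET1+ controls. Notch3 ran from NICD (22.6 CPM) through E14.5 PLET1+ controls (8.70 CPM), E12.5 cKO (7.5 CPM), E12.5 controls (5.39 CPM), PLET1- controls (4.07 CPM) and PLET1- cKO (1.81 CPM) to E14.5 PLET1+ cKO (0.305 CPM), and each pair of neighbours overlapped. For Notch2, NICD (694 CPM) and E14.5 PLET1+ cKO (526 CPM) led and PLET1- controls (192 CPM) came last, and for Notch4, NICD (3.26 CPM) and E12.5 controls (2.34 CPM) led and E12.5 cKO (0.261 CPM) came last. All neighbours overlapped for these genes as well. The same 2 groups, E14.5 PLET1+ cKO and NICD, therefore held the ends of the order for both Notch1 and Notch3.

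Over the 23 libraries, genes were ranked by the Pearson correlation of their log2(CPM + 1) with each receptor, among 10148 genes with a mean of at least 5 CPM. The points share library depth, batch and group, so these values describe the libraries and carry no test. Among the genes most like Notch1 were Gstt3 (r = 0.867) and Zfp750 (0.867), a regulator of epidermal differentiation. Notch3 was most like the epithelial splicing regulator Esrp1 (0.817), Notch1 itself (0.813) and the fibrillin gene Fbn2 (0.801). In the 18 libraries without NICD the correlation of Notch1 and Notch3 was 0.706.

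**Figure D4:**
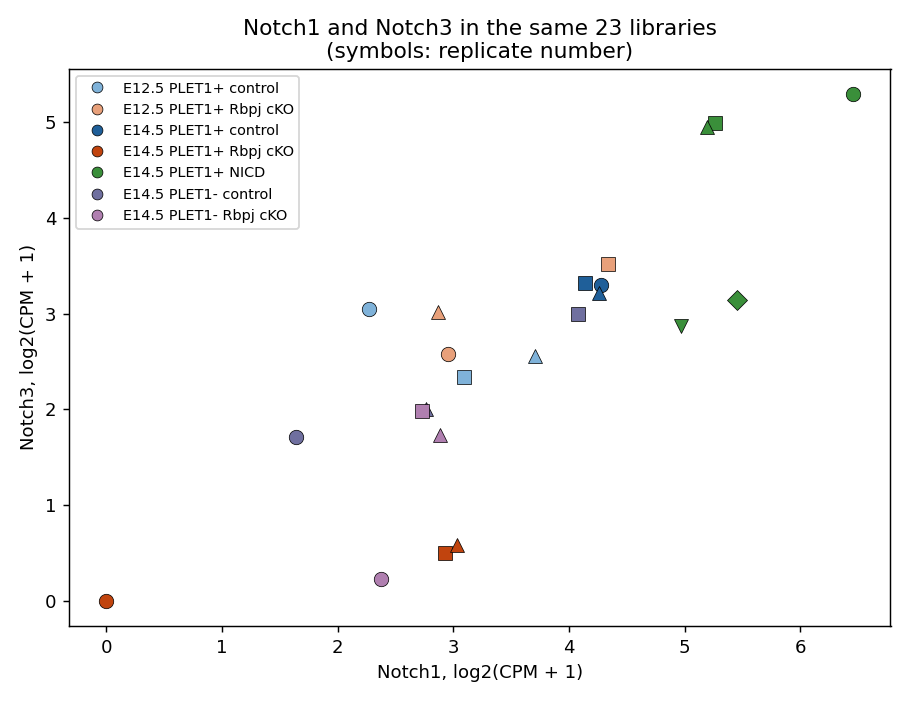
Each point is 1 of the 23 libraries, with log2(CPM + 1) of Notch1 on the horizontal and of Notch3 on the vertical axis, coloured by group and with circles, squares, triangles, diamonds and inverted triangles for replicates 1 to 5. NICD libraries lie to the right, E14.5 PLET1+ Rbpj cKO libraries at the bottom, and r over all points was 0.813.

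Notch2 was closest to Rap2b (r = 0.976), a small GTPase gene, Pomp (0.966), which codes for the proteasome maturation protein, and Wtap (0.966), which codes for a subunit of the RNA m6A methyltransferase complex. These values stayed between 0.953 and 0.969 without NICD or without the 2 libraries farthest from the Notch2 median. In the 12 E14.5 libraries of the Rbpj cross, Notch2 was at 352 to 1390 CPM in the 4 replicates numbered 1 and at 85.7 to 136 CPM in the other 8, with the mitochondrial shares given above. Within each of the 4 groups, replicate 1 was thus above the other 2 libraries in Notch2, whereas Rbpj genotype and PLET1 gate did not separate it. Replicate 1 was set apart after the values were seen, and these libraries also differed in Foxn1. The share of all genes tested that replicate 1 separates in this way was not counted. For Notch1, Notch3 and Notch4 the same replicates overlapped (0 to 18.4 against 5.64 to 18.2 CPM for Notch1). Notch4 was most like Bfar (0.688), Kdm2a (0.682) and Tspan7 (0.671), which fell to 0.466, 0.641 and 0.452 without the 2 libraries farthest from its median.

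**Figure D5:**
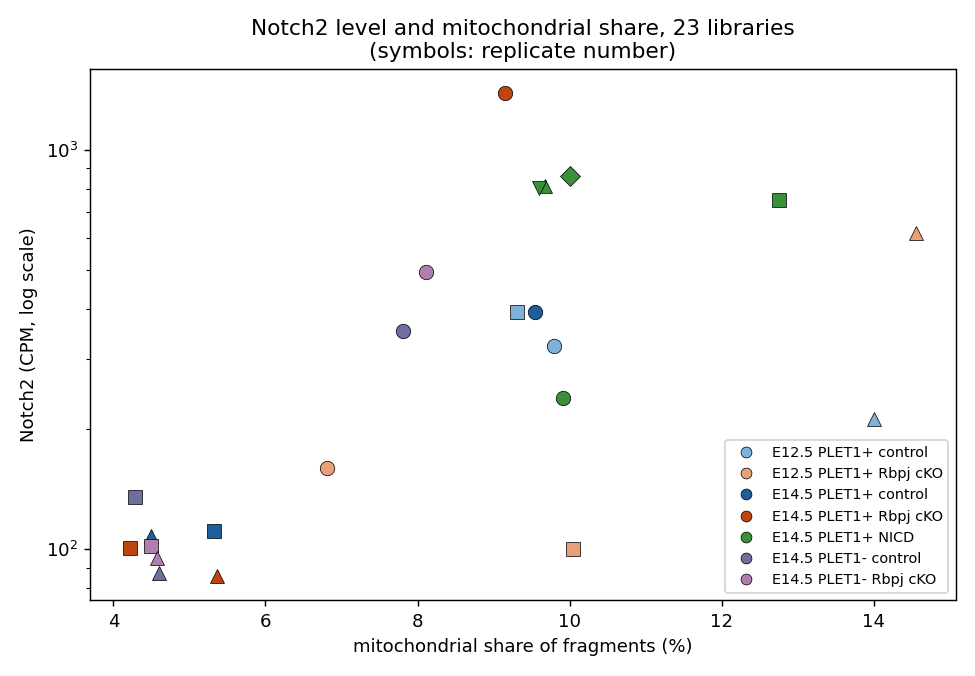
Notch2 (CPM, log axis) is plotted against the mitochondrial share of fragments in the 23 libraries, coloured by group and with circles, squares, triangles, diamonds and inverted triangles for replicates 1 to 5. The 8 replicates numbered 2 and 3 of the E14.5 Rbpj cross lie at 4.21% to 5.36% and 85.7 to 136 CPM, below the 4 numbered 1, at 7.80% to 9.54% and 352 to 1390 CPM.

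Of 50 further Notch pathway genes, 47 could be tested. Between E14.5 PLET1+ Rbpj cKO and control, edgeR called none, and 1 had an unadjusted p under 0.05, against 2.06% of all genes tested. The median log2 fold change of the 47 was −0.15, against −0.02 over all genes tested. The 4 tested target genes, which are activated through RBPJ, were all lower in the cKO (median −1.22): Heyl was at 2.38 ± 2.38 CPM in the cKO and 22.2 ± 9.92 CPM in controls (log2 fold change −3.20, SE 1.14; unadjusted p = 0.0114 in edgeR's fit), and Hey2 at 1.09 ± 0.985 and 4.75 ± 3.81 CPM (SD, n = 3 each). Ligands had a median of 0.04, genes for receptor glycosylation and cleavage −0.16, nuclear cofactors −0.24, inhibitors −0.05 and the ubiquitin ligases that act on ligands 0.01. After Rbpj, the next smallest p among the rest was that of Psenen, a gamma-secretase subunit, at 60.8 ± 50.4 and 36.6 ± 6.83 CPM, a difference whose direction turned without cKO replicate 1. Thus Heyl and Hey2, the targets with the largest differences, had their lower means in the same group as Notch3, without passing the test over all genes.

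In PLET1- TECs the pathway median was 0.19 (0.02 over all genes) and edgeR called 0 of 47 genes. An unadjusted p under 0.05 was found for 3, against 2.34% of all genes tested. Hes1, a target gene, was at 29.4 ± 3.05 CPM in the cKO and 53.4 ± 8.36 CPM in controls (log2 fold change −0.83, SE 0.38), and Mib1, a ligand ubiquitin ligase, at 86.7 ± 7.21 and 129 ± 47.1 CPM (SD, n = 3 each). Hey2 went the other way, at 5.02 ± 4.84 CPM in the cKO and 0.209 ± 0.345 CPM in controls, and Neurl3, another such ligase, was at 0 in all controls and up to 7.05 CPM in the cKO. At E12.5 the median was −0.09 (0.00 over all genes), again with 0 of 47 called by edgeR. At an unadjusted p under 0.05 there were 2, against 3.79% of all genes tested. Hey1 was at 221 ± 113 CPM in the cKO and 115 ± 61.6 CPM in controls, Heyl at 6.02 ± 6.54 and 24.2 ± 16.6 CPM, the gamma-secretase gene Aph1a at 1.93 ± 1.70 and 0.066 ± 0.088 CPM, and the ligand gene Dll1 at 0 in all 3 cKO libraries and 1.03 ± 1.61 CPM in controls.

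NICD was the comparison with a called pathway gene, 1 of 47, against 0.684% of all genes tested. In edgeR's fit 13 of 47 had an unadjusted p under 0.05, against 15.7% of all genes tested. Hes1, the canonical Notch target, rose in NICD libraries, where it averaged 167 ± 46.0 CPM (SD, n = 5), against 41.0 ± 8.22 CPM (SD, n = 3) in controls. Its log2 fold change was 2.05 (SE 0.37; adjusted p = 0.0145 in edgeR's test). It was higher with NICD under all 20 alternatives, at 1.84 to 2.23, but was called in 13 of them, with adjusted p from 1.19e-06 to 0.481, and the call was lost without any 1 of the 3 controls. Dll4, the ligand that cortical TECs present to thymocytes, was at 3.56 ± 1.91 CPM against 23 ± 5.03 CPM (log2 fold change −2.72, SE 0.70; adjusted p = 0.0847), and Dll1 was at 0 in all 5 NICD libraries and at 1.31 to 1.56 CPM in the controls. Maml3, a Mastermind-like cofactor, was at 30.2 ± 12.9 CPM against 10.7 ± 1.82 CPM. All 4 target genes were higher with NICD (median 2.11) and 4 of 5 ligands were lower (median −2.72). Jag1, the ligand with the highest level in both groups, was the exception. It was at 747 ± 176 CPM with NICD and 223 ± 88.9 CPM in controls. The median over the 47 genes was −0.17, against 0.03 over all genes tested.

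Between the control ages, the pathway median was 0.12 (0.19 over all genes), with 0 of 47 called by edgeR. At an unadjusted p under 0.05 there were 9, against 12.9% of all genes tested. Hes1 was at 41.0 ± 8.22 CPM at E14.5 and 134 ± 86.6 CPM at E12.5, Mib1 at 101 ± 26.1 and 195 ± 15.3 CPM and Hey1 at 198 ± 17.5 and 115 ± 61.6 CPM (SD, n = 3 each), while Neurl3 was at 0 in every E12.5 control and at 1.73 to 6.74 CPM at E14.5. Between the PLET1 gates the pathway median was 0.17 (0.02 over all genes), also with 0 of 47 called by edgeR. At an unadjusted p under 0.05 there were 2, against 2.87% of all genes tested. The ligand gene Jag1 was at 223 ± 88.9 CPM in PLET1+ and 90.7 ± 42.4 CPM in PLET1- controls, Hey2 at 4.75 ± 3.81 and 0.209 ± 0.345 CPM and Psen2, a gamma-secretase gene, at 1.13 ± 1.53 and 0.053 ± 0.072 CPM, and Neurl3 was at 0 in all PLET1- controls. In the interactions, too, edgeR called 0 of 47, with 2 in each at an unadjusted p under 0.05. The shares over all genes tested were 2.62% for the PLET1 gates and 3.15% for the ages. The smallest unadjusted p for the PLET1 gates belonged to Hey2 (−7.44, SE 2.23), with Neurl3, Mib1 and Hey1 next, and for the ages to Hey1 (−1.51, SE 0.43), with Hey2, Fbxw7 and Dll1 next.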

How the data were processed

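The 23 Smart-seq2 libraries, each of 100 sorted cells, formed 7 groups and were sequenced, with paired reads of 75 bases. The authors trimmed reads with Trimmomatic 0.32, aligned them with STAR 2.5.1a to GRCm38.p5 and counted them on exons of GENCODE genes with featureCounts (1.5.1 in the submitters' processing notes, 1.5.0-p3 in the file header), without strand and without reads that map to several places. The deposited values are unnormalized counts per gene.

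Symbols were found for 98.4% of the gene identifiers. TMM-normalized CPM were used for levels, divided by the exon length in the table where genes were compared. After filterByExpr, 19140 genes were tested in 1 edgeR quasi-likelihood fit, whose terms were 7 group means and 2 batch contrasts over all libraries, two-sided, with Benjamini-Hochberg adjustment in each of 6 comparisons and 2 interactions, at an adjusted p of at most 0.05. No source used here states that libraries of the Rbpj cross came from separate embryos, so p-values measure the spread between these libraries. Same-numbered libraries varied together in the E14.5 Rbpj cross (correlation of deviations over 6517 genes 0.32 to 0.63) but not elsewhere (−0.23 to 0.09). No label states such a pairing. Named genes are the receptors, Rbpj, Foxn1, the 3 genes most correlated with each receptor (1 of those for Notch1 is not reported here), and the pathway genes called or with the 4 smallest p in a comparison. The receptors and gene lists were chosen with earlier results of these data known. Alternatives were DESeq2, limma-voom, other scaling and filters, no batch terms, a replicate block, other sample sets and each library left out; 2 more were added after the values were seen. Each SE from edgeR is the absolute log2 fold change divided by the square root of the F statistic of its test. The fit was also run on simulated counts with large planted changes. These held no batch or replicate effects, so they do not show how the fit handles such effects. The programs used were Python 3.11.15 and R 4.3.3 with DESeq2 1.42.0, edgeR 4.0.16 and limma 3.58.1. Total counts per library limit the precision: 3 counts are the detection floor used, and cover counting error only.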

Additional observations from a re-analysis of the deposited data

Results flagged for a closer look

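In the 5 NICD libraries, the largest gap between an end library and its nearest neighbour, as a share of the group's range, was 0.782 for Notch1, where replicate 1 was at 87.0 CPM and the next library at 42.7 CPM, and 0.82 for Notch2, where replicate 1 was at 240 CPM and the next library at 750 CPM. Both exceed Dixon's limit of 0.71 for 5 samples, which chance passes in about 1 of 20 groups, and both concern the same library, highest for Notch1 and lowest for Notch2. Its sequencing depth, 63587152 read pairs on genes, was the lowest of the 5. Leaving this library out changed the log2 fold change of Notch1 to 1.04 and that of Notch2 to 2.06. Notch3 and Notch4, at 0.232 and 0.549, did not pass the limit.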

How the results depend on the processing

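Over the alternatives, 601 values of the 4 receptors were recomputed. Of these, 559 kept their direction and their side of the threshold, 39 reversed (3 for Notch1, 15 for Notch2, 1 for Notch3 and 20 for Notch4) and 3 passed the threshold, and no receptor had been called beforehand. For all reversals the cause was not tested. Few counts limit what can be resolved for Notch4, and nothing here separates batch from age or from NICD genotype.

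The values that newly passed were Notch3 with DESeq2 in the E14.5 PLET1+ cKO (−4.85) and in the interaction with age (−5.34), and Notch2 with NICD when no filter was applied (1.88). Without the 4 first replicates of the E14.5 Rbpj cross, Notch2 reversed in the cKO comparison in PLET1+ (−0.22) and PLET1- TECs (−0.16), between the PLET1 gates (−0.0084) and in the interaction with PLET1 (−0.057), and Psenen in PLET1+ TECs (−0.021). With limma-voom, the PLET1- cKO comparison reversed for Notch1 (0.032) and Notch4 (2.10), the E12.5 one for Notch4 (0.090), the PLET1 gates for Notch2 (−0.23) and the interaction with PLET1 for Notch4 (−1.16). In the PLET1- cKO comparison Notch4 also reversed without batch terms (0.026), with the compared groups alone (1.13) and with the mitochondrial share as a covariate (0.91). That covariate reversed Notch2 (1.22) and Notch3 (−0.19) between ages, Notch2 between the PLET1 gates (−0.27) and Notch4 in the interaction with PLET1 (−0.27).

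With the replicate number as a block (replicate block, paired by number alone), Notch3 in the E14.5 PLET1+ cKO was −5.66 (adjusted p = 1, edgeR) and no receptor changed its call. Notch4 reversed in the PLET1- cKO (0.43) and E12.5 cKO comparisons (1.35) and in the interaction with age (−0.76). The block left 2, 1 and 2 genes called in the E12.5 cKO, NICD and age comparisons, the latter pair fitted on replicates 1 to 3.

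Numbers of genes called, in the order E14.5 PLET1+ cKO, PLET1- cKO, E12.5 cKO, NICD, age, PLET1 gate, interaction with PLET1 and interaction with age, were 0, 0, 5, 131, 185, 0, 0 and 0 in edgeR, 100, 160, 319, 1236, 1284, 153, 107 and 193 with DESeq2 and 10, 15, 52, 677, 519, 16, 6 and 24 without a filter. Limma-voom called 0 at E12.5, 998 with NICD, 448 between ages and 1 between the PLET1 gates. At E12.5 the count was 3 with library size alone and 0 without batch terms, with the compared groups alone, and without the 4 first E14.5 replicates. For NICD it was 17 with the compared groups alone, 806 against all 6 E14.5 controls and 34 with the mitochondrial covariate, and for age 1 with the compared groups alone, 79 with the covariate and 280 without the 4 first E14.5 replicates.

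With 1 library left out at a time, the E14.5 PLET1+ cKO comparison ranged from −0.93 to 1.97 for Notch2 (lowest without cKO replicate 1), from −0.17 to 4.31 for Notch4 (below 0 without control replicate 1 or 2) and from −0.17 to 1.05 for Psenen (lowest without cKO replicate 1). In PLET1- TECs the ranges were −1.05 to 0.55 for Notch1 and −0.66 to 1.38 for Notch4 (both highest without control replicate 2), and −0.63 to 0.81 for Notch2 (below 0 without control replicate 3 or cKO replicate 1). At E12.5 they were −0.19 to 0.86 for Notch1 and −1.22 to 0.10 for Notch2 (reversed without cKO replicate 2), and −4.13 to 3.29 for Notch4 (above 0 without control replicate 2 or cKO replicate 3). Between ages Notch4 ranged from −5.17 to 3.27 (highest without E12.5 control replicate 2). Between the PLET1 gates Notch2 ranged from −0.44 to 0.72 (below 0 without PLET1+ replicate 1 or PLET1- replicate 3). In the interaction with PLET1 the ranges were −1.18 to 1.77 for Notch2 (lowest without PLET1+ cKO replicate 1) and −0.51 to 4.10 for Notch4 (below 0 without PLET1+ control replicate 1 or 2 or PLET1- control replicate 2). In the interaction with age they were −0.38 to 2.55 for Notch2 (lowest without E14.5 cKO replicate 1) and −2.41 to 6.22 for Notch4 (lowest without E12.5 control replicate 2). The genes called ranged from 0 to 9 at E12.5 (0 without cKO replicate 2, 9 without cKO replicate 3, and 3 without control replicate 2 or cKO replicate 1), from 31 to 172 for NICD (31 to 42 without a control, 80 without NICD replicate 3), from 95 to 141 between ages (lowest without E14.5 replicate 2) and from 0 to 3 in the interaction with age (highest without E12.5 control replicate 3).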
